A study of Mus musculus with 80 samples.

Results

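The effect of pioglitazone (Pio) on RXR binding was examined in livers that lack PPARγ in hepatocytes, on a control diet. The members were the ChIP-Seq libraries of 5 KO livers on control diet with Pio (KO Pio) and of 5 KO livers on control diet alone (KO Control), that is 10 of the 40 ChIP libraries among the 80 samples of the series. They were chosen by their titles, without reference to any measured value. All 10 mice were male, 5 months old and labelled C57BL6/J and PPARg knockout, and they ate their diet for 12 weeks. The knockout came from loxP-flanked PPARγ alleles cut by Cre under the albumin promoter, which is active in hepatocytes, so that other liver cells kept the receptor. Each library was 1 liver. The labels name an RXR antibody for KO Control but none for KO Pio, whose titles name RXR, so drug and antibody label cannot be told apart in these groups.

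RXR is the obligate partner of PPARγ: the pair binds direct repeats of the motif AGGTCA with a spacer of a single base, and Pio is an agonist of PPARγ. RXR also pairs with LXR, FXR, PPARα and other nuclear receptors that control lipid, bile acid and drug metabolism in the liver, so its binding does not require PPARγ. Binding sites of this kind lie mostly in enhancers and promoters, outside exons. The comparison therefore asks what Pio changed at RXR sites when its main target was absent from hepatocytes.

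A site here is a set of overlapping intervals (called peaks) of the 10 livers, and its strength in a liver is the fold enrichment of the strongest summit over local input background. The 10 lists merged into 74115 sites on chromosomes 1 to 19, X and Y. Of these, 42304 (57.1%) were called in a single liver and 2484 in all 10 livers. A further grouping, the recurrent sites, required a call in at least 3 of the 5 livers of either group and held 15171 sites. All positions are on mm10 (GRCm38).

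The libraries were shallow. After removal of duplicate tags 0.66 to 1.06 megatags (Mtags) remained per ChIP library, 42 to 67% of tags having been redundant, against 2.81 to 7.19 Mtags in the matched inputs. The median interval rested on a pileup of 3 to 5 tags in each liver, which limits the precision of any single value. Over these 2484 sites log2 fold enrichment correlated between pairs of livers with r of 0.71 to 0.76 within KO Control, 0.71 to 0.76 within KO Pio and 0.66 to 0.74 between the groups, where the points are sites that share libraries.

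The sites that fell with Pio were marked by their sequence, and the letters under a pair of them are shown before their values, one for a tandem array and one for a repeat of rodents. Each window below holds 30 bases of the mm10 reference within 100 bp of the summit, read 5′ to 3′ on the strand given, with the letters that define the class in capitals. The first window, a tandem array of GGAAT, occurred in the same 30 letters at each of the 5 called sites of its class. The window near Tspan8 holds a decamer of the form found in B1, a repeat of rodents. A further class is defined by decamers of the form found in the Alu repeats of primates and, for GGAGGCTGAG, in 7SL RNA, the non-coding RNA from which Alu and B1 both derive.

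near Itga11, chr9:62608589-62608618, plus strand: GGAATGGAATGGAATGGAATGGAATGGAAT
near Tspan8, chr10:115764295-115764324, plus strand: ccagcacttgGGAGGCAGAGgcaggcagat

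The 3 sequence classes were searched in the 201 bp around each summit, on both strands. The pentamer class required at least 6 copies of GGAAT on one strand, where GGAGT was counted too and so was GGAAC. Tandem GGAAT is the unit of the classical satellite DNA of human chromosomes. The Alu-form class required GGAGGCTGAG or GGGATTACAG, and the B1-form class required GGAGGCAGAG or GGGATTAAAG, which differ from the Alu form by T7A and C8A. The classes do not overlap: pentamer came first and Alu-form second. They were defined after the sites that fell with Pio had been seen, so their values on control diet are a description with no test. Reads were not used here, and which genome the tags came from was not tested.

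Most intervals of both groups lay in exons. Summits were in an annotated exon for 82.8% ± 4.72 (SD, n = 5) of intervals in KO Control and 83.9% ± 3.0 (SD, n = 5) in KO Pio, whereas exons cover 4.70% of these chromosomes. These shares did not differ beyond their spread (difference 1.08 percentage points, two-sided exact permutation test, p = 0.667, Benjamini-Hochberg adjusted p = 0.667). Among the 2484 sites called in all 10 livers, 1206 had their summit in a coding exon, 924 in a 3′ UTR, 64 in an intron and 5 within 5 kb upstream of a protein-coding gene.

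Numbers of intervals varied more between KO Control livers than between KO Pio livers. KO Control livers had 14728, 23508, 24383, 7630 and 22065 intervals. KO Pio livers had 24792, 22771, 23349, 30437 and 21265. The groups overlapped, and the lowest list was that of KO Control liver 4, which had the most ChIP tags and the most input tags of the 10 after duplicates were removed. On the log2 scale KO Pio was higher by 0.52 (two-sided exact permutation test, p = 0.175, adjusted p = 0.349). Outside exons the difference was 0.45 (p = 0.516 in the same exact test, adjusted p = 0.667). Without KO Control liver 4 it was 0.23 for all intervals and -0.0074 for those outside exons.

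**Figure D1:**
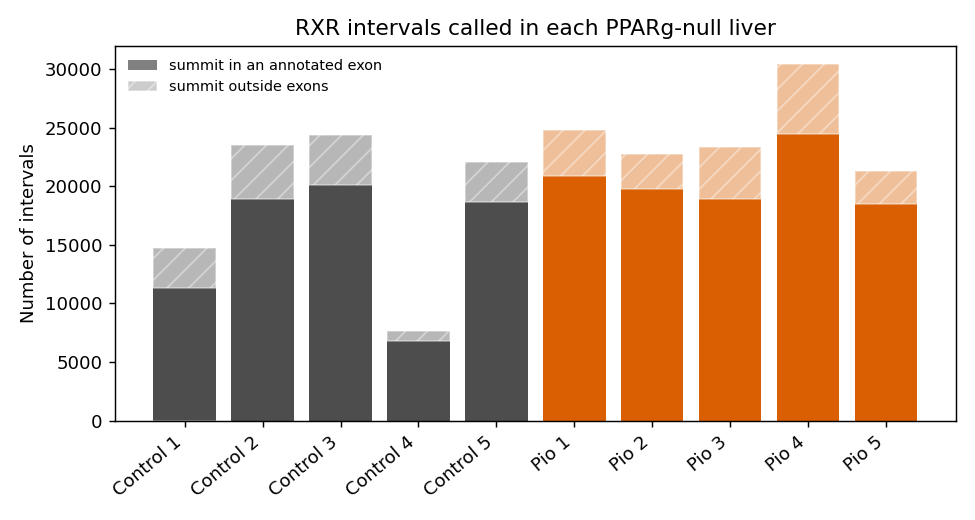
Number of RXR intervals called in each of the 10 PPARγ-null livers, split by whether the summit lay in an annotated exon (solid) or outside exons (hatched), with KO Control in grey and KO Pio in orange. The exonic part is the larger in every liver, and KO Control liver 4 has the shortest list, 7630 intervals.

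The strongest exonic sites did not follow Pio. Actb, the gene of cytoskeletal actin, had fold enrichment of 31.1, 53.9, 56.7, 51.8 and 64.7 in KO Control and 48.5, 48.2, 36.2, 71.8 and 54.9 in KO Pio. Nnat, an imprinted gene of neurons and endocrine cells, was at 43.5 ± 2.92 (SD, n = 5) and 49.5 ± 6.40. The tubulin genes Tubb5, Tuba1a and Tubb3 completed the leading 5, and their log2 changes were -0.10, -0.08 and -0.27 with adjusted p of 0.967, 0.974 and 0.737 (limma). Over all 2367 exonic sites the median log2 change was 0.00, a value largely set by the centring. The median of each liver over the 2484 sites, most of them exonic, had been subtracted from its log2 values. Without centring the median change over these sites was 0.12.

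Outside exons the order was different. The strongest of the 117 sites called in all 10 livers, near Arid1b, carried the GGAAT array, and those in the introns of Acacb and Plxdc2 carried an Alu-form decamer. Acacb encodes a liver and muscle acetyl-CoA carboxylase, the enzyme that makes malonyl-CoA. Its site had fold enrichment of 40.6, 26.8, 28.0, 40.9 and 37.6 in KO Control and of 23.0, 16.9, 19.1, 15.4 and 31.9 in KO Pio. A single Pio liver reached into the range of the untreated livers, and the log2 change of -0.86 ± 0.22 (SE) missed the threshold (limma adjusted p = 0.073). By contrast, an intronic site of Tuba1a without these sequences was at 26.2 ± 2.22 and 23.5 ± 4.70 (SD, n = 5 each).

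Of the 2484 sites called in all 10 livers, 13 were lower in KO Pio than in KO Control and none was higher. The criteria in limma were a Benjamini-Hochberg adjusted p under 0.05 and at least a 2-fold change. The fit used log2 values from which the median of the liver had been subtracted. The share called lower was 0.523% of sites tested. At an unadjusted p below 0.05, 101 sites (4.07%) were lower and 57 (2.29%) higher. The 13 log2 changes ran from -1.03 to -1.68. Of the 13 sites, 10 lay outside exons, 8.55% of the 117 tested there, and 3 in exons of annotated small non-coding RNA genes. By sequence, 5 were of the pentamer class, 6 of the Alu form and 1 of the B1 form, and the remaining one was Rn7s6. Rn7s6 held AGAGGCTGAG, which differs from the Alu-form decamer GGAGGCTGAG by G1A only.

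These 13 sites were narrow, with a median width of 306 bp against 934 bp for exonic sites called in all 10 livers. Their summits rested on 2 to 119 tags, with a median of 20 in KO Control and 8 in KO Pio. None held a direct repeat of AGGTCA with spacer 1 at up to 1 mismatch, and the best match had 3 mismatches.

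The log2 changes of the 5 pentamer sites were -1.09 to -1.68. The site near Itga11 (chr9:62608457-62608795, 69.2 kb from the gene) had fold enrichment of 25.5, 17, 13.1, 26.5 and 7.52 in KO Control and of 4.35, 4.70, 10.3, 4.42 and 5.56 in KO Pio. A single Pio liver lay above the lowest untreated liver. Its log2 change was -1.68 ± 0.32 (SE, limma adjusted p = 0.013). The site near Arid1b (chr17:4626039-4626714, 367.9 kb away), which held 39 copies of the pentamers, was at 104, 92.9, 55.8, 91.9 and 53.3 in KO Control. Its mean of 79.6 was above the 51.6 of Actb, although Actb was the higher of the pair in KO Control livers 3 and 5. In KO Pio it was at 25.4, 13.1, 49.6, 35.4 and 49.5, below every untreated liver, with a log2 change of -1.43 ± 0.29 (SE, limma adjusted p = 0.020). Sites near Nxph1 (chr6:10186262-10186577), Pou4f1 (chr14:104336834-104337150) and Olfr855 (chr9:19575307-19575635) made up the class. Near Nxph1, KO Control livers were at 26.9, 16.5, 15.8, 22.7 and 14.9 and KO Pio livers at 8.41, 7.0, 10.1, 5.30 and 9.77, with no overlap. The nearest genes serve only to place these sites, since distances reached 937.4 kb.

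The 6 Alu-form sites had log2 changes of -1.03 to -1.34. In the intron of Lipc, which encodes hepatic lipase, KO Control livers were at 30.3, 22.7, 19.3, 28.6 and 19.2 and KO Pio livers at 10.2, 5.72, 14, 11.1 and 20.5. The log2 change was -1.18 ± 0.27 (SE, limma adjusted p = 0.046), and a single Pio liver overlapped the untreated ones. The intronic site of Auts2 (chr5:131519608-131519911) was at 27.7, 22.6, 14.1, 18.9 and 14 against 7.51, 8.49, 13.1, 4.6 and 9.01, which did not overlap. The site 27.1 kb from Pdia6, a protein disulfide isomerase gene (chr12:17239335-17239627), changed by -1.31 ± 0.23 (SE, limma adjusted p = 0.0070). The intronic site of Izumo1, a sperm gene for fusion with the egg (chr7:45623563-45623864), changed by -1.31 ± 0.29 (adjusted p = 0.041 in the same limma fit).

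The 3 called sites counted as exonic lay on small RNA genes. Rn7s6 (chr6:69516224-69516526), annotated as a 7S RNA, was at 18.9, 19.8, 16.3, 17.4 and 13.2 in KO Control and at 8.45, 6.60, 5.53, 4.64 and 9.83 in KO Pio. The groups did not overlap, and it had the smallest adjusted p of the 13, with a log2 change of -1.45 ± 0.23 (SE, limma adjusted p = 0.0035). Gm22567 and Gm26461, both of the type misc_RNA, changed by -1.22 and -1.03. The B1-form site 52.6 kb from Tspan8 (chr10:115764146-115764433) changed by -1.30 ± 0.29 (SE, limma adjusted p = 0.041).

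In 8 of the 13 sites every KO Pio liver lay below every KO Control liver. Over all sites called in 10 livers, 0.564% were separated in this direction and 0.926% in the other. Among the latter was Dync1h1, the heavy chain of dynein, chosen here after its values were seen because it led the higher sites. Its coding exon was at 4.33, 3.73, 4.59, 5.49 and 3.76 in KO Control and at 10.1, 8.30, 7.49, 6.26 and 9.40 in KO Pio, with a log2 change of 0.79 ± 0.21 (SE, limma adjusted p = 0.089). It became a call (1.0 ± 0.21 SE, limma adjusted p = 0.013) only where values were centred on sites outside exons, a scaling that moved the median change of all sites from 0.00 to 0.21. That scaling left 10 sites lower.

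**Figure D2:**
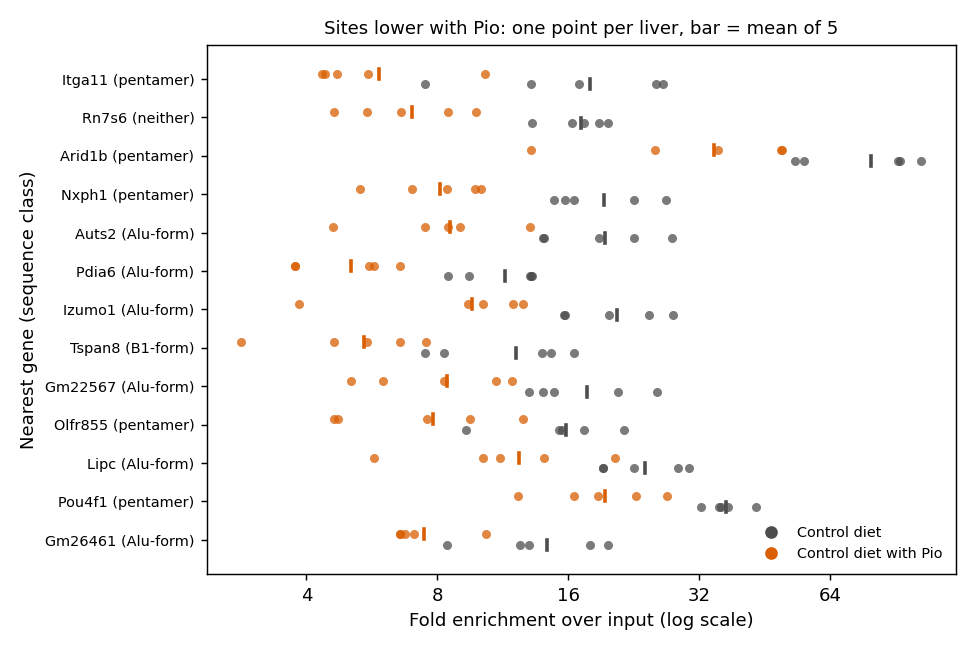
Fold enrichment over input (log scale) at the 13 sites lower with Pio, 1 point per liver and a bar at the mean of 5, with KO Control in grey and KO Pio in orange; rows are named by nearest gene with the sequence class in brackets. The groups are separate at 8 sites, among them Rn7s6 (13.2 to 19.8 against 4.64 to 9.83) and Arid1b.

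The number of calls leaned on single livers. It was 3 without KO Control liver 1, 4 without KO Control liver 4 and 7 without KO Pio liver 4, and 23, 22 and 21 without KO Control liver 5, KO Pio liver 5 and KO Pio liver 3. Every call in these fits was lower with Pio. With the replicate number as a block 13 sites were called, 12 of them shared. In KO Control livers 1 and 4, 42% of tags were redundant. The share was 62 to 67% in the other KO Control livers and 56 to 67% in KO Pio. The median exonic site of KO Control livers 1 and 4 was also the lowest, at 5.66 and 6.41 against 7.37 to 8.35 in the other livers. Whether these library differences bear on the calls was not tested.

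The classes were then described as a whole. All 16 pentamer sites outside exons and called in all 10 livers had a log2 change below 0, with a median of -1.09 and a range of -1.68 to -0.63. All 15 Alu-form sites outside exons were below 0 as well, with a median of -0.88. In the limma fit 31.2% of the pentamer sites and 26.7% of the Alu-form sites were called lower, against 1.16% of the other 86 sites outside exons and 0.127% of exonic sites. The other 86 sites had a median of 0.00, and 44 of them were below 0. The 16 Alu-form sites in exons, which held 2 of the calls, had a median of -0.05, and 9 of them were below 0. The 86 sites included the 3 B1-form sites, near Tspan8, Traf2 and Zfp821, whose changes were -1.30, -0.86 and -0.78 and of which only the first was called.

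The median Alu-form site had fold enrichment of 19.1, 13.9, 14.8, 20.1 and 13.3 in KO Control and of 8.45, 5.72, 10.2, 7.42 and 12.8 in KO Pio. The groups did not overlap. The median pentamer site was at 22.6, 17.8, 14.7, 24.4 and 11.5 against 8.41, 5.66, 11.9, 5.80 and 12.5, with an overlap between the lowest untreated liver and 2 Pio livers. The median exonic site was at 5.66, 7.54, 8.25, 6.41 and 7.55 against 7.86, 7.55, 7.46, 8.35 and 7.37.

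**Figure D3:**
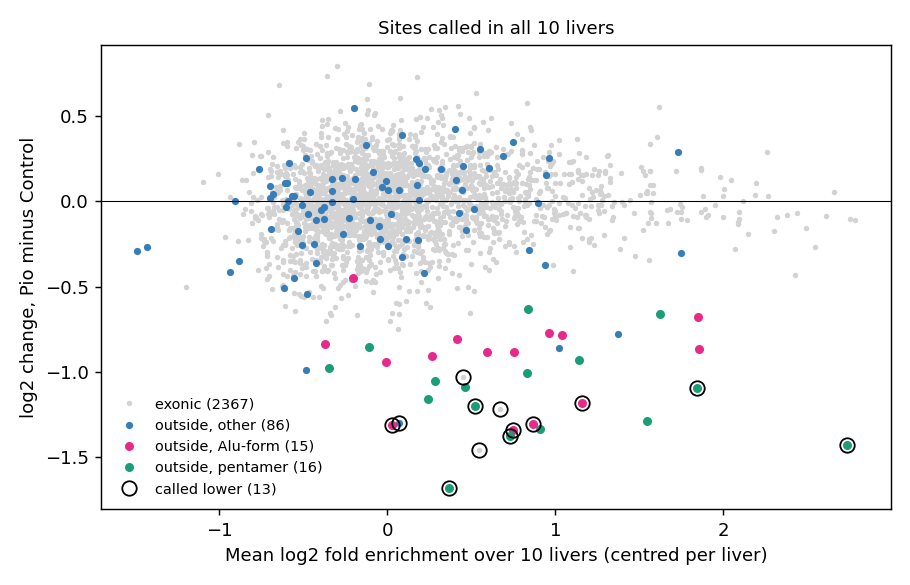
Log2 change with Pio (y axis) against mean centred log2 fold enrichment over 10 livers (x axis) for the 2484 sites called in every liver, coloured by site class, with the 13 calls ringed. The 16 pentamer and 15 Alu-form sites outside exons all lie below 0, while exonic and other sites scatter around 0.

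Sites outside exons were also compared with exonic sites as a whole. The gap between sites outside and in exons (difference of the median log2 fold enrichment within a liver) was 0.22, 0.03, 0.03, 0.29 and 0.13 in KO Control and -0.10, -0.19, 0.01, -0.25 and 0.13 in KO Pio. It was lower with Pio by 0.22 (two-sided exact permutation test, p = 0.0317), which did not pass after adjustment over the 4 such measures (adjusted p = 0.127), and the groups overlapped. The result turned on the definition of sites. A definition chosen after seeing the data left out the pentamer and Alu-form sites. The mean gap was then -0.083 ± 0.077 (SD, n = 5) in KO Control and -0.150 ± 0.095 in KO Pio. With those sites included the means were 0.14 and -0.080. With exons of protein-coding genes only the difference was -0.17 (exact permutation test, p = 0.00794, adjusted p = 0.0317), the smallest p that 5 against 5 livers can give, whereas it was 0.0012 once intervals below a -log10 q of 5 were dropped (p = 1.0 in the same exact test).

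Intervals with an Alu-form decamer outside exons were also fewer in number. KO Control livers had 162, 149, 120, 114 and 83 such intervals and KO Pio livers had 56, 37, 79, 60 and 79, with no overlap. As a share of intervals outside exons these were 2.43 to 14.5% and 1.01 to 2.84%. B1-form intervals outside exons overlapped between the groups, at 52 to 98 against 39 to 85, and so did pentamer intervals, at 33 to 37 against 23 to 35.

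The Alu form and the pentamers were more frequent at these sites outside exons than beside them, and the B1 form was not. The decamers had been read at sites of these livers, in Izumo1 and Auts2 for the Alu form and near Tspan8 and Traf2 for the B1 form. The pentamers were chosen after the calls were seen. Part of an excess was thus fixed in advance, and the shares are a description with no test. An Alu-form decamer stood in 8.72% of the 1215 recurrent sites outside exons and in 0.741% of windows of the same length moved by 10000 bp. For the pentamer class the shares were 2.80% and 0, and for the B1 form 3.21% and 3.54%. Among recurrent exonic sites 0.566% held an Alu-form decamer, against 0.674% of the moved windows.

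The same places were seen in other livers of the series. Of the 13 called sites, 10 were called in at least 1 of the 5 untreated WT livers on control diet and 12 in at least 3 of the 5 WT Pio livers. Among sites called in all 10 KO livers, a call in any WT Control liver was found for 38 of the 2367 exonic sites and 34 of the 117 outside exons, and calls in at least 3 WT Pio livers for 21.3% and 45.3%. Of the classes, 14 of the 16 pentamer sites and 6 of the 15 Alu-form sites were called in at least 3 WT Control livers, as were 2 exonic sites. WT lists were called at another cutoff and depth, so these counts place the sites and do not compare genotypes.

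In KO livers on HFD no recurrent site of the control-diet livers passed the test. The HFD groups were 5 HFD and 5 HFD-Pio livers, of the same genotype, age and diet time, whose labels also name no antibody. Of the recurrent control-diet sites, 2720 were called in all 10 HFD and HFD-Pio livers and could be tested. None was called by limma, 151 being below an unadjusted p of 0.05, and the smallest adjusted p was 0.061. Sites of the HFD livers outside this set were not tested. Only 4 of the 13 sites called lower with Pio on control diet could be tested there. Their log2 changes there were all below 0, at -1.08 near Arid1b, -0.99 in Lipc, -0.66 at Gm22567 and -0.41 in Izumo1. Of all 13, 9 were called in fewer HFD-Pio than HFD livers, 4 in equal numbers and 0 in more. HFD livers 1 to 4 each called all 13 and HFD liver 5 called 11, so most sites could not gain calls in HFD-Pio. The HFD-Pio livers called 12, 13, 6, 11 and 7 of them.

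Among sites of the control-diet livers, 13 pentamer or Alu-form sites outside exons were called in all 10 HFD livers. Their gap to exonic sites was 1.02, 2.46, 0.84, 1.57 and 0.86 (log2) in HFD and 1.32, 1.29, 0.01, 0.33 and 0.00 in HFD-Pio. Of the HFD-Pio livers, 2 lay among the HFD livers and the other 3 lay below them. HFD liver 2 stood apart in this class, with 323 Alu-form intervals outside exons against 21 to 98 in the other HFD livers and 28 to 96 in HFD-Pio.

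Whether the effect of Pio differed between diets was tested directly. Site by site, 0 of 1934 sites called in all 20 KO livers had a different effect (limma interaction, 97 at an unadjusted p below 0.05, smallest adjusted p = 0.673). At those sites the effect on the gap between sites outside and in exons was -0.014 on control diet and -0.034 on HFD, a difference of 0.019 (two-sided permutation test within diets over all 63504 assignments, p = 0.824). This set of sites thus had little effect on control diet to compare, against -0.22 over the sites called in the 10 control-diet livers. For the 13 pentamer or Alu-form sites among them the effect on the gap to exonic sites was -0.98 on control diet and -0.73 on HFD, a difference of -0.25, which was not tested because the classes were chosen on the control-diet values.

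**Figure D4:**
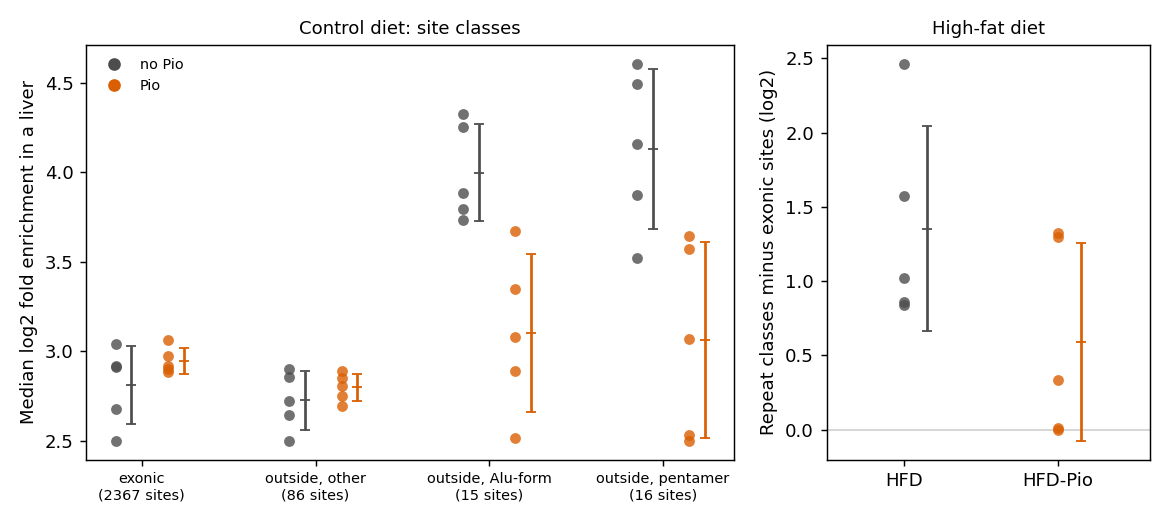
Left, the median log2 fold enrichment of each site class in each control-diet liver, with mean ± SD of 5 beside the points; right, the log2 gap between pentamer or Alu-form sites and exonic sites in each HFD liver, with mean ± SD of 5. KO Control and KO Pio are separate for Alu-form sites, whereas on HFD 2 Pio livers (1.29 and 1.32) lie within the range of the untreated livers.

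Calls that were present in one group and absent from the other were more often gained than lost. Of the 15171 recurrent sites, 1245 (8.21%) were called in at least 3 of 5 KO Pio livers and in 0 of 5 KO Control livers, and 264 (1.74%) showed the opposite. Just inside that limit, 953 of the gained sites had 3 Pio livers, and 1426 sites with 3 Pio livers and 1 Control liver stood just outside it. No single site passed Fisher's exact test after adjustment (518 at an unadjusted p below 0.05, 446 of them toward Pio), since 5 livers against 0 reaches only p = 0.00794 in this exact test. The excess of gained over lost calls depended on list length. When each list was cut to its 7630 strongest intervals, 212 sites were gained and 205 lost.

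**Figure D5:**
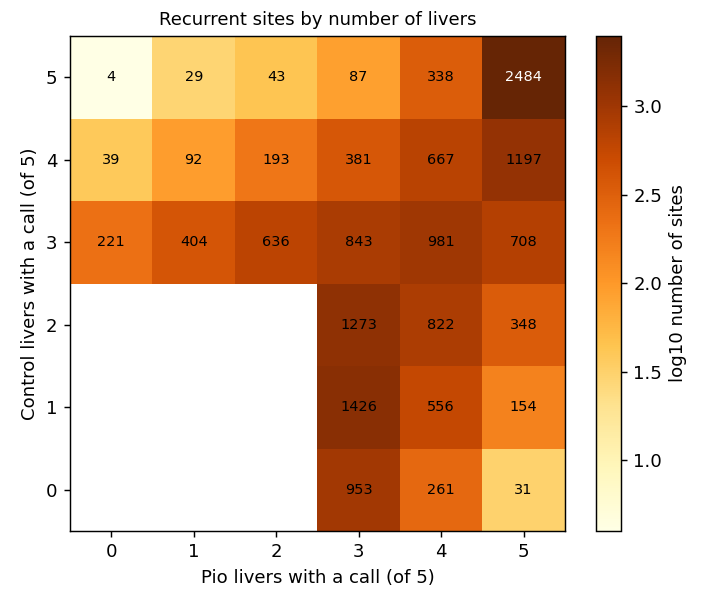
Number of recurrent sites by how many of 5 KO Pio livers (x axis) and of 5 KO Control livers (y axis) called them, with colour on a log10 scale. The bottom row holds the 1245 gained sites (953, 261 and 31), the left column the 264 lost sites (221, 39 and 4), and the upper right corner the 2484 sites called in all 10 livers.

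Gained sites were largely exonic, 1119 of 1245, or 8.02% of recurrent exonic sites. Led by the rule for named sites, they included a coding exon of Cox5a, a subunit of cytochrome c oxidase (chr9:57521254-57521448). It was called in no KO Control liver and in all KO Pio livers, at 6.68, 5.24, 7.77, 7.66 and 6.45. Coding exons of Acin1, which acts in RNA splicing, and of Psmc4, a subunit of the proteasome, were called in the same pattern, at 5.39 to 7.44 and 4.20 to 7.13. So were Gspt1, a factor of translation termination (3.85 to 10.5, in its 5′ UTR), Tmed7, a cargo protein of the early secretory pathway (2.83 to 8.56), and the processed pseudogene Gm7517 (4.20 to 6.19). On HFD these 6 sites followed no common order. Cox5a (3 HFD and 0 HFD-Pio livers), Acin1 and Gspt1 were called in fewer HFD-Pio livers, Psmc4 and Tmed7 in equal numbers, and Gm7517 in 0 HFD and 4 HFD-Pio livers.

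Outside exons 126 sites were gained, 10.4% of the recurrent sites there. An intron of Rpl37, a ribosomal protein gene, was called in all 5 KO Pio livers at 3.75 to 9.62. The site downstream of 9330182L06Rik was called in 5 Pio livers too, at 3.71 to 5.71. Introns of Cpsf1 and Rbm39, which act in 3′ end formation and splicing of RNA, and of Klc1 and Negr1, a kinesin light chain and a neuronal adhesion protein, were called in 4 Pio livers each. None of the 126 was of the pentamer or Alu-form class, and 1 was of the B1 form.

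Lost sites lay outside exons more often than gained ones, 89 of 264 against 126 of 1245, and the 89 were 7.33% of the recurrent sites there. Of these 89, 32 were Alu-form, 9 B1-form and 3 pentamer sites. Put the other way, 30.2% of the recurrent Alu-form sites outside exons were lost and 0 were gained, 8.82% of the pentamer sites were lost and 0 gained, whereas 5.02% of the sites of neither class were lost and 11.7% gained. The sites of neither class included the 39 recurrent B1-form sites outside exons, of which 9 were lost and 1 was gained. The pentamer site 12.4 kb from Usp15 (chr10:123092412-123092702) was at 4.71, 6.08, 4.6, 8.24 and 2.83 in KO Control and was called in no Pio liver. An Alu-form site 22.2 kb from Zfp229 (chr17:21791382-21791663) was called in 4 KO Control livers, at 6.57 to 9.44. The site 62.4 kb from 1700021F07Rik, of neither class, was called in 5 KO Control livers, at 4.6 to 7.85. Sites near Mbd2 (5 livers), near Hivep1 and in an intron of Asap3 (4 livers each) completed the list.

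In exons 175 sites were lost, 1.25% of recurrent exonic sites. Cse1l, an exportin for importin-α, was called in 5 KO Control livers at 3.50 to 5.67 and in no Pio liver. Coding exons of Lrp1, the liver receptor for chylomicron remnants (4.16 to 6.08), of Trp53bp1 in the DNA damage response (3.78 to 7.55), of the RNA-binding protein gene Khsrp and of the scaffold gene Cask were called in 4 KO Control livers each. So was the 3′ UTR of St8sia4, a polysialyltransferase. At these levels a call rested on few tags.

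The 89 lost sites outside exons were looked up in the HFD livers, which had no part in choosing them. They were called 17, 62, 18, 29 and 0 times in the HFD livers and 14, 12, 3, 6 and 2 times in the HFD-Pio livers, which overlapped. Counted by site, 64 were called in fewer HFD-Pio than HFD livers and 5 in more, and HFD liver 2 supplied 62 of the calls. For the 175 lost exonic sites the numbers were 59 and 56, and for the 1245 gained sites 418 and 471.

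Genes that PPARγ is known to drive in fatty liver had no recurrent site. Cav1, a caveolin, was called in 2 KO Control and 2 KO Pio livers. Cd36, a fatty acid transporter, the adipokine gene Cfd, the lipid droplet genes Cidec and Plin4, the lipid chaperone gene Fabp4 and Mogat1, an enzyme of triglyceride synthesis, were called in none of the 10. Pparg itself was called in 1 KO Pio liver, at 3.71, which does not measure its deletion. A peak list gives no value for a site without a call, so these are not measurements of absence.

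Targets of the other partners of RXR were counted in the same way. Among all genes 5186 had a recurrent site. Their share of the annotated genes was not computed, so the counts below do not rank any list against it. Of 16 FXR targets 0 had a recurrent site. For LXR 3 of 16 did, led by Apoe and Fasn, and for PPARα 2 of 36 did. RAR, VDR, CAR and PXR targets had 2 of 18. All sites in these lists were exonic. None of their 10 LXR, 2 PPARα and 2 other sites was gained or lost, which at so few sites is near the 8.21% gained and 1.74% lost over all sites. Only 5 LXR sites and 1 of the last list could be tested by limma, and none was called, against 0.523% lower over all sites. Fasn, the fatty acid synthase gene, reached 9.22 to 15.9 in KO Control and 10.4 to 16.4 in KO Pio, with a median log2 change of 0.13 over 4 tested sites.

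Nuclear receptor and coregulator genes had sites of their own. Of 34 genes, 7 had 51 recurrent sites, 48 of them in exons. Thra, the thyroid hormone receptor α gene, led at 15.7 to 26.2 in KO Control and 20.5 to 24.3 in KO Pio. The corepressor gene Ncor1 had 17 recurrent sites, 3 of them gained, and the coactivator gene Ncoa1 had 8, 2 of them gained. In the whole list 6 sites were gained (11.8%) and 1 was lost (1.96%), against 8.21% and 1.74% over all recurrent sites. These few sites do not set the list apart. None of 10 tested was called by limma, against 0.523% called lower over all sites tested. Rxra was called in 1 KO Pio liver, Rxrb in 3 KO Control and 4 KO Pio livers and Rxrg in 3 KO Pio livers.

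Genes of general metabolism carried more exonic sites. Oxidative phosphorylation had 112 recurrent sites in 39 of 45 genes, with 8 gained and 1 lost, and the median log2 change of 21 tested sites was -0.05 (Atp5b, a subunit of ATP synthase, at 15.6 to 23.0 in KO Control and 16.2 to 23.9 in KO Pio). Ribosomal protein genes had 50 in 28 of 38 genes, with 1 gained and a median of 0.02 over 23 sites, led by Rps3. Cholesterol synthesis had 41 in 12 of 20 genes, with 2 gained and 2 lost and a median of -0.15 over 5. Fatty acid synthesis had 30 in 8 of 16 genes, with 1 gained, led by Acacb and Scd2. Fewer sites stood in circadian genes, 3 in 2 of 16 genes, and in secreted liver proteins, 6 in 2 of 30. Of the 3 circadian sites 1 was gained (33.3%), and of the 6 sites of secreted liver proteins 0 were gained. Gained sites were 7.14% of the sites of oxidative phosphorylation, 2.0% of ribosomal protein, 4.88% of cholesterol synthesis and 3.33% of fatty acid synthesis sites, against 8.21% over all recurrent sites. Lost sites were 0.893% and 4.88% for oxidative phosphorylation and cholesterol synthesis and 0 for the other two, against 1.74%, and these few sites set no list apart. Sites tested by limma numbered 21 for oxidative phosphorylation, 23 for ribosomal proteins, 5 for cholesterol synthesis and 9 for fatty acid synthesis. Secreted liver proteins had 4 tested sites and circadian genes 0. None was called, which at so few sites is near the 0.523% called lower over all sites tested. The median over all 2484 sites was 0.00, a value largely set by the centring on the median of each liver.

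The label liver was set against marker genes by the strongest interval within each gene. Of 8 hepatocyte markers 1 had any call, Ttr, and Alb, Apoa1, Serpina1a, Cps1, Cyp2e1, Apob and Fgb were called in none of the 10 livers. All 10 neural markers had a call and 6 had a recurrent site, led by Tubb3, Gap43, a growth cone protein, and Stmn2, a neuronal regulator of microtubules. Summed over the neural list, fold enrichment was 89.3 to 139.8 in KO Control and 108.5 to 139.7 in KO Pio, which overlapped. The hepatocyte sum was 17.5 to 21.8 and 20.6 to 26.9, all of it from Ttr, a gene of liver and choroid plexus. Of 5 smooth muscle markers 2 had a recurrent site, with sums of 11.7 to 17 and 12.2 to 21.4.

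The other lists had fewer calls. The 6 intestinal and 6 immune markers had no call. Of 4 endothelial markers 3 were called in KO Pio livers only, with sums of up to 10.2 there and 0 in KO Control, Stab2 being at 0 throughout. These were weak calls of 2.75 to 3.81, in 3 livers for Pecam1 and Cdh5 and in 2 for Kdr. The list held 0 recurrent sites, so none counted as gained, against 8.21% gained over all recurrent sites. Stellate and cholangiocyte markers summed to 0 to 9.17 and 3.96 to 7.61, with the collagen gene Col1a1 called in 4 KO Control and 5 KO Pio livers and Lrat and Epcam at 0, and adipocyte markers to 0 and up to 2.78, with Adipoq and Plin1 at 0. The part of these exonic signals in any result above was not tested. Strength of a ChIP interval in an exon is not a level of expression.

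The spacer-1 element of the RXR and PPARγ pair was rare at these sites. A spacer-1 repeat of AGGTCA with at most 1 mismatch stood within 100 bp of 0.229% of recurrent exonic summits and of 0.494% of those outside exons, where windows moved by 10000 bp gave 0.358% and 0.329%. It occurred in 1 of the 126 sites gained outside exons, in 0 of the 89 lost there and in 0 of the 117 called in all 10 livers. For spacers of 0 and of 2 to 5 bases the shares were 0.136 to 0.287% in recurrent exonic sites and 0.247 to 0.494% outside exons. Moved windows were not scanned for these spacers, and other arrangements of the motif were not searched. A match is a description of letters and not a measured site.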

How the data were processed

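RXR ChIP-Seq peak lists of mouse liver were analysed. The authors aligned single-end reads to mm10 (Novoalign). Per the file headers, MACS2 2.1.1.20160309 compared every library with the input of the same liver, at a q cutoff of 0.05 and with duplicate tags removed. The deposited values used were fold enrichment over local background (a ratio), pileup at the summit (a signal, in tags) and the -log10 q-value. Reads per site were not used here, so the authors' differential test on reads was not repeated and no counting interval was computed.

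Groups came from the sample labels. Summits of 1 interval were merged to the strongest, and intervals of the 10 livers sharing at least 1 bp were merged into sites. Summits were placed on GENCODE M21, checked to be on the same build. Where all 10 livers had a call, limma 3.58.1 in R 4.3.3 was fitted to log2 fold enrichment minus the median of the liver (trended moderated statistics, Benjamini-Hochberg adjustment over all sites, adjusted p under 0.05 and at least 2-fold), tested on simulated data. Single values per liver were compared by exact two-sided permutation over 252 assignments (smallest p 0.00794) and adjusted over 4 results. Gained and lost sites needed calls in at least 3 of 5 livers of one group and in 0 of the other, with Fisher's exact test per site. Diet was compared by an interaction term. Python 3.11.15, scipy 1.17.1 and pysam 0.24.0 were used. Livers were separate animals; the labels did not pair them. Same-numbered livers did not deviate together (r of -0.04 to 0.02 over 2484 sites).

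Sites named were all limma calls, up to 6 gained and 6 lost sites in and outside exons by the largest difference in livers called, the 5 strongest sites in and outside exons, the 7 PPARγ exemplar genes, Pparg and up to 4 leading members of each gene list; exceptions are marked in the text, and a few genes and windows that the rule names are not reported here. Members and lists were chosen with earlier results of these data known, and the sequence classes after the calls were seen. Alternatives were other centrings, pileup scaled to depth, stricter q or fold enrichment, sites in at least 4 of 5 livers, no trend, other exon definitions, equal list lengths, joined summits, the replicate block and leaving out each liver. Narrow peak files hold the same intervals and were not used, nor were mitochondrial peaks. Sequences were read from the GRCm38 reference (RefSeq assembly).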

Additional observations from a re-analysis of the deposited data

Results flagged for a closer look

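Within groups of 5 livers, 3 values stood apart from the other 4 by more than the Dixon limit, of 34 groups examined; chance alone flags about 1 in 20. KO Control liver 4 had a log2 number of intervals outside exons of 9.62 (789 intervals), the lowest of its group. At the site near Itga11 KO Pio liver 3 had a fold enrichment of 10.3 against 4.35 to 5.56 in the other KO Pio livers. At Gm26461 KO Pio liver 2 had a fold enrichment of 10.3, the others being at 6.55 to 7.07.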

How the results depend on the processing

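Directions of the limma calls held in every alternative run, except that centring on sites outside exons added 1 higher site, Dync1h1, to 10 lower ones. The number of calls was 20 with sites in at least 4 of 5 livers (4686 tested), 3 at a -log10 q of at least 5 (919 tested) and 1, Rn7s6, without sites of the pentamer and Alu-form classes (2437 tested, chosen after seeing the data and removing 11 of the 13 calls by construction), and it ran from 3 to 23 when single livers were left out. Rn7s6, left in that run, held a decamer that differs from the Alu form by G1A only. At the 13 called sites themselves, 186 refitted values stayed past the threshold and 50 did not, and none changed sign. The replicate block gave 13 calls, and permutation within pairs gave exact p of 0.0625 for the exon gap, the smallest that 5 pairs allow (adjusted p = 0.250), 0.500 for the number of intervals and 0.813 for both the number outside exons and the exonic percent. For the gap the unpaired exact p of 0.0317 lay below 0.05 and the paired one could not, while after adjustment neither passed. Gained sites numbered 292 at 4 of 5 livers, 212 with lists of equal length, 331 at the stricter q and 540 to 1958 when single livers were left out, and lost sites 43, 205, 91 and 81 to 413 (1245 and 264 as reported). The exon gap differed by 0.0012 at the stricter q, by -0.17 with exons of protein-coding genes only (adjusted p = 0.0317 in the exact permutation test) and by -0.32 to -0.17 without single livers. The number of intervals outside exons differed by -0.15 at a fold enrichment of at least 5 and by -0.0074 to 0.63 without single livers. The exonic percent differed by -0.37 to 2.79 percentage points, and the total number by 0.23 to 0.65, without single livers. For the difference between diets in the gap, exons of protein-coding genes gave -0.091 and leaving out single livers -0.025 to 0.0496. The cause of these changes was not tested. Pileups of a few tags limit what single sites can show.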
